A study of Mus musculus with 10 samples.

Results

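The genes described here are 35 immediate early and heat shock genes, found by gene symbol in the table of every library among the 21938 protein-coding genes listed there. Of these, 28 are immediate early genes and 7 are heat shock genes. Their RNA was measured by sequencing in 10 libraries of macrophages that had been sorted by fluorescence from mouse mammary tumours, and the question put to the data was how both classes varied per library and across the 3 groups. The 4 Mertk KO libraries came from mice whose macrophages lacked Mertk according to the labels, which do not name the driver of the deletion, and these mice bore wild-type tumour cells. The 3 Ptdss1 knockdown libraries came from wild-type mice bearing tumour cells with Ptdss1 knocked down, and the 3 control libraries from wild-type mice bearing wild-type tumour cells. All mice were C57BL/6, all tumours came from PyMT tumour cells (from tumours caused by the polyoma middle T oncogene) placed in 2 mammary glands, and all were taken after 5 weeks. Whether each library was 1 mouse is not stated, and the spread behind the p-values is therefore that of libraries and may be technical.

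Immediate early genes are transcribed within minutes of a stimulus without new protein synthesis, largely through serum response factor and cAMP response element binding protein, and many of their products are transcription factors or brakes on kinase signalling and on mRNA stability. Heat shock genes encode chaperones that hold or refold proteins, and their induction runs through heat shock factor bound to repeats of a short element in their promoters. Both classes are known to be induced when tissue is digested and cells are kept warm during sorting, so in sorted tissue macrophages their level holds the state in the tumour and the handling together. No sample without dissociation was analysed here, and those sources cannot be told apart.

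Of the heat shock genes, 5 had a promoter window in the RefSeq table (build GRCm38.p6; 250 bases before to 50 after the gene's start, first listed window of each gene). A pair of facing heat shock half-sites, GAANNTTC or TTCNNGAA on either strand, was found in 4 of these 5 (Hspa1a, Hspa1b, Hsph1 and Dnaja1), in 2 of the 23 immediate early genes in the table (Fosl2 and Jun), and in 15.1% of all 27025 windows. The window of Dnajb1 held no such match. The windows of the pair Hspa1a and Hspa1b are shown because their reads are hard to assign, and that of Hsph1 because its level was low in the same library as theirs; capitals mark the matches.
Hspa1a, chr17:34972107-34972406, minus strand: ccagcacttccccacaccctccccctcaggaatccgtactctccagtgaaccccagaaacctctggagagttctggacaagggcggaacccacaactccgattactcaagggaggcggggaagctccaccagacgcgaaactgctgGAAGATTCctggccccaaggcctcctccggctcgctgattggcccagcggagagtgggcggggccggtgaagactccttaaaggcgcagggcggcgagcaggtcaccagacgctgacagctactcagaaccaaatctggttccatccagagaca
Hspa1b, chr17:34959189-34959488, minus strand: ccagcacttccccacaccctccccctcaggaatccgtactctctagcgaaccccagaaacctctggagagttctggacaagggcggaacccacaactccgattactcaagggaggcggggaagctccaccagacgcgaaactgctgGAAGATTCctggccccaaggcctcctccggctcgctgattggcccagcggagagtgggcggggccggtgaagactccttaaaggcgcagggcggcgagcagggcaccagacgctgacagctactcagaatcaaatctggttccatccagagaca
Hsph1, chr5:149636287-149636586, minus strand: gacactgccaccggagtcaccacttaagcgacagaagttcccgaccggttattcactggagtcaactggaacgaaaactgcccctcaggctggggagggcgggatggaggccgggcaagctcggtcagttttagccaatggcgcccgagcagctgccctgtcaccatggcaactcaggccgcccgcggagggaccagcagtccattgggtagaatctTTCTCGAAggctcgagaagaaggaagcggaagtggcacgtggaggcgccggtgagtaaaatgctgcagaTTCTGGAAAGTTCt
The match began 104 bases upstream of the start in both Hspa1a and Hspa1b, whose windows were identical at 296 of 300 bases. The 4 differences, counted from 1 at the window's 5′ end with the Hspa1a base first, were C44T, T47C, T249G and C276T. Hsph1 had 3 matches, one beginning 33 bases upstream of the start and a further pair that overlap each other downstream of it.

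Among the immediate early genes, the cAMP response element TGACGTCA was found in the windows of Dusp1 and Btg2, 2 of 23, against 1.88% of all windows, and TATAAA in 5 of 23 (Fos, Junb, Zfp36l1, Btg1 and Gadd45b), against 14.2%. The CArG box, the sequence bound by serum response factor, was found in Zfp36 and Dusp5, 2 of 23, against 1.57% of all windows, and in 0 of the 5 heat shock windows. The CArG box of Zfp36 began 58 bases upstream of its start and is in capitals in its window.
Zfp36, chr7:28379179-28379478, minus strand: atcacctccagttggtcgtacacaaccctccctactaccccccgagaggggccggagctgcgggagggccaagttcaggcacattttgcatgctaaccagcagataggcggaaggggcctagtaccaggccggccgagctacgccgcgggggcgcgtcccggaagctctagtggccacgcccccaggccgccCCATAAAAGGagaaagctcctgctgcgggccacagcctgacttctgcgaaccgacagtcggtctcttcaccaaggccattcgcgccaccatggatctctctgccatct
A match says only that these letters are in the window, and a missing match says nothing of sequence outside it. No window was available for Egr1, Egr3, Myc, Ier2 and Zfp36l2, nor for the heat shock genes Hspa8 and Hsp90aa1.

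Reads assigned to genes ranged from 10292592 to 25815071 per library. Ptdss1 knockdown replicate 1 and control replicate 2 stood apart: among genes that reached 10 reads in at least 7 other libraries (called common genes here), 31.5% and 13.1% fell under 10 reads there, against 0.108% to 8.60% in the other libraries, and results that rest on them are given with and without them. All 9 macrophage markers, among them Csf1r, Adgre1 and C1qa, had at least 10 reads in every library, with summed normalised reads of 263227 to 542178 in Mertk KO, 338349 to 346186 in Ptdss1 knockdown and 276481 to 405245 in control. Natural killer cell markers summed to 227 to 675 in Mertk KO, 991 to 2052 in Ptdss1 knockdown and 1499 to 2135 in control. Of these 5 markers, 1 to 4 had at least 10 reads in Mertk KO, 3 to 4 in Ptdss1 knockdown and 2 to 4 in control. Ncr1 was at 0 in every library except Ptdss1 knockdown replicate 2, and the sum of Mertk KO replicate 4 came from Klrk1 alone. Epithelial and tumour markers summed to 976 to 2723 in Mertk KO, 4.34 to 923 in Ptdss1 knockdown and 313 to 521 in control. Of these 5 markers, 1 to 3 had at least 10 reads in Mertk KO and control, and 0 to 5 in Ptdss1 knockdown. Epcam and Krt14 were at 0 in every Mertk KO and control library, so these sums rest on few genes. Mast cell markers reached 2862 and neutrophil markers 5562 in Ptdss1 knockdown replicate 1, with S100a8, S100a9, Mpo, Elane, Cpa3 and Mcpt4 all at 0 there. The remaining marker lists (T cell, B cell, dendritic, fibroblast and endothelial) summed to at most 1934 in any library. The part of these cells in the results below was not tested, and in bulk libraries fewer cells of a type and less RNA per cell cannot be told apart.

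Both classes were read in the macrophages of all 3 groups, at levels that ranged from among the highest of all genes to low. Per kilobase of transcript, the median over the 10 libraries put Fos first among the 35 genes at 13851 normalised reads and Hspa8, the constitutive Hsp70 chaperone, second at 12988. Fos (chromosome 12, 85473890 to 85477273, plus strand, GRCm38), a subunit of the AP-1 transcription factor, lay between the 98.5th and the 99.7th percentile of the 11564 genes tested in every library. Next per kilobase came Ier3 (8464), a target of NF-kappaB that modulates cell survival, Junb (7205), another AP-1 subunit, and Dusp1 (5838), a phosphatase that switches off p38 and JNK kinases. Zfp36 (4073), which encodes the mRNA decay factor tristetraprolin, followed them. At the other end stood Egr3, a zinc finger transcription factor, with a median of 16.3 normalised reads per kilobase and 0 to 263 reads in a library. The inducible chaperones sat in the lower part of the order: Hspa1a at 350, Dnajb1 at 280, Hspa1b at 272 and Hsph1 at 169 normalised reads per kilobase. Gene levels per kilobase are of medians over libraries, and neighbours in the order overlap in their ranges, so Fos ran from 18990 to 61885 reads and Hspa8 from 11981 to 71811. Of the 75-base windows of the Hspa8 transcript, 68.6% also occur in other genes, so its level is uncertain.

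**Figure D1:**
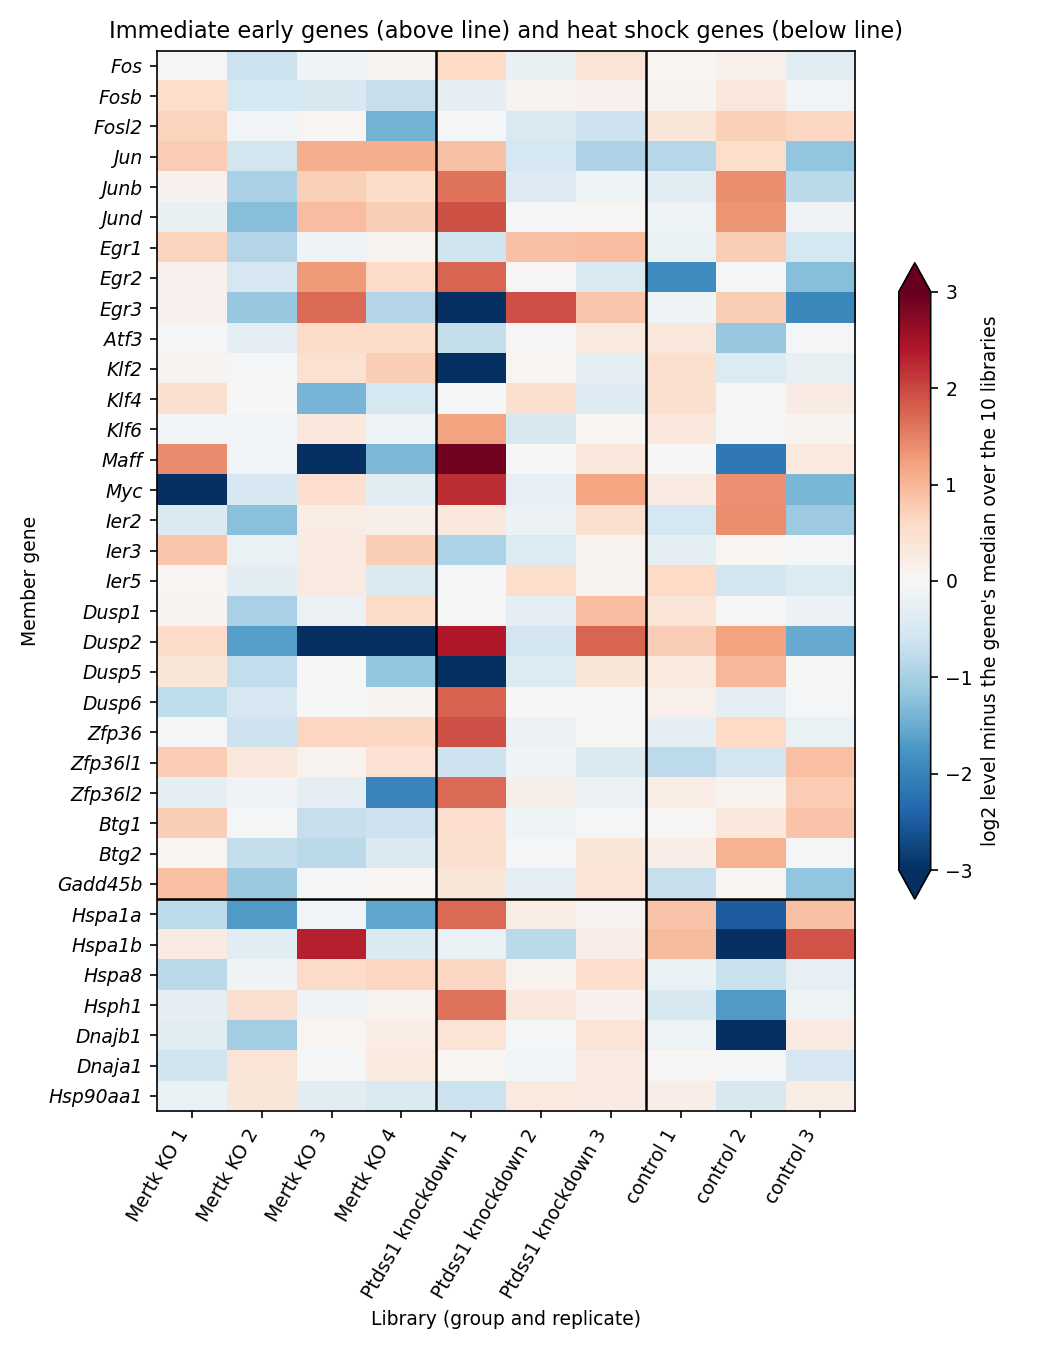
Each cell shows the log2 level of a gene (rows) in a library (columns, by group and replicate) minus that gene's median over the 10 libraries, red above and blue below, with immediate early genes above the line and heat shock genes under it. In control replicate 2 none of the 7 heat shock genes is above its median, while 19 of the 28 immediate early genes are.

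The 2 classes differed in which libraries were high. The level of a class in a library is given here as the mean, over its genes, of the log2 level minus that gene's median over the 10 libraries. For the immediate early genes this was 0.16, -0.55, -0.23 and -0.23 in Mertk KO replicates 1 to 4, -0.014, -0.028 and 0.19 in Ptdss1 knockdown replicates 1 to 3, and -0.039, 0.28 and -0.31 in control replicates 1 to 3. For the heat shock genes it was -0.39, -0.28, 0.34 and -0.17 in Mertk KO, 0.51, -0.0015 and 0.26 in Ptdss1 knockdown, and 0.18, -1.92 and 0.33 in control. The mean over all 11564 genes tested also differed by library, with -0.71 in control replicate 2 and -1.53 in Ptdss1 knockdown replicate 1. Over the 4599 genes with at least 100 reads in every library, the median deviations there were 0.031 and 0.64. The heat shock level of 0.51 in Ptdss1 knockdown replicate 1 was thus not above that of well-read genes. By the class means control replicate 2 was the highest library of all 10 for the immediate early genes and the lowest for the heat shock genes, and its heat shock level minus its immediate early level was -2.20, against -0.55 to 0.65 in the other libraries. With medians over genes in place of means it was again the lowest for the heat shock genes, at -1.69, but second to Ptdss1 knockdown replicate 1 for the immediate early genes, at 0.23 against 0.41. Over the 25 immediate early genes with at least 10 reads in every library, Ptdss1 knockdown replicate 1 again came first, with a mean of 0.38 against 0.33 in control replicate 2. The 35 further immediate early genes tested had a mean of -0.26 and a median of 0.13 in control replicate 2, and their mean was highest in Mertk KO replicate 1, at 0.64. The first place of control replicate 2 for the immediate early genes therefore depended on the summary and on the genes used.

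**Figure D2:**
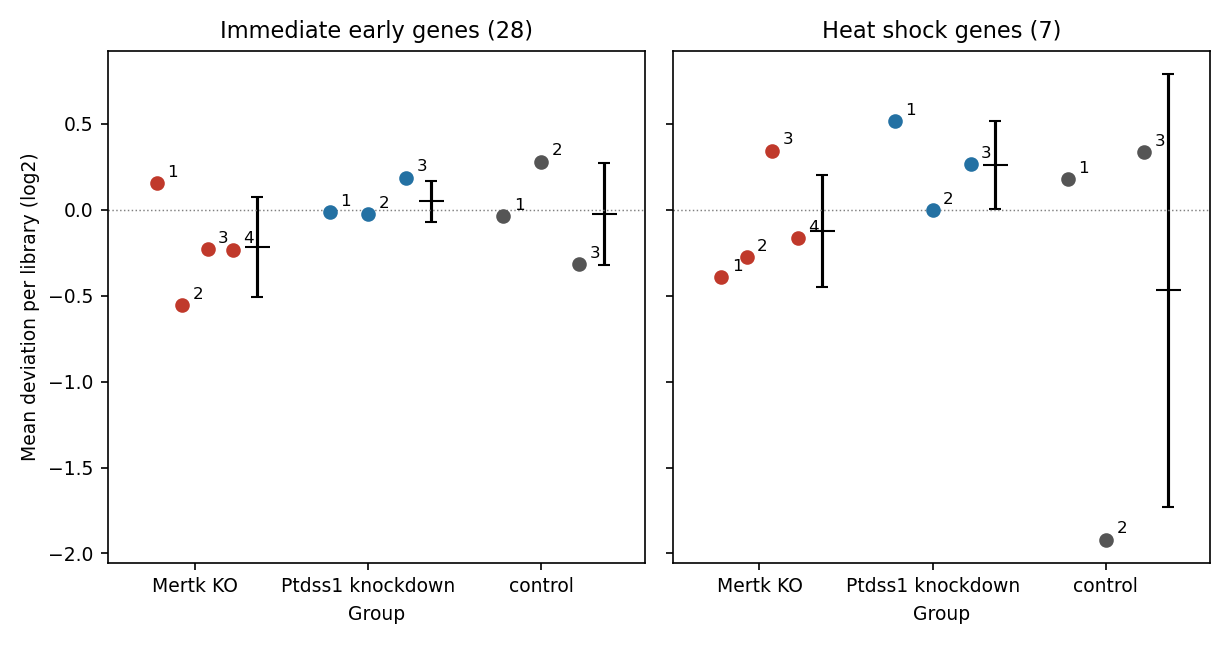
Points are libraries, numbered by replicate, and give the mean deviation of the log2 level from each gene's median, for 28 immediate early genes (left) and 7 heat shock genes (right); bars are the group mean ± SD. The groups overlap in both panels, and control replicate 2 lies at -1.92 on the right while it is the highest point on the left at 0.28.

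Averaged by group, the immediate early level was -0.21 ± 0.29 in Mertk KO (SD, n = 4), 0.048 ± 0.12 in Ptdss1 knockdown (SD, n = 3) and -0.025 ± 0.30 in control (SD, n = 3). The heat shock level was -0.12 ± 0.32 in Mertk KO, 0.26 ± 0.26 in Ptdss1 knockdown and -0.47 ± 1.26 in control. Without control replicate 2 the control heat shock level was 0.26 ± 0.11 over the remaining 2 libraries, which put it above Mertk KO in place of below it. Without Ptdss1 knockdown replicate 1 as well, the heat shock level was -0.12 in Mertk KO, 0.13 ± 0.19 in Ptdss1 knockdown (SD, n = 2) and 0.26 ± 0.11 in control, so that Ptdss1 knockdown lay below control. The immediate early level was then -0.21 in Mertk KO, 0.079 ± 0.15 in Ptdss1 knockdown and -0.18 ± 0.19 in control, which left the Mertk KO and control levels close together. The libraries of all 3 groups overlapped for both classes, and no test was run on these levels because genes are not replicates.

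In control replicate 2 all 7 heat shock genes lay at or below their own medians, and for 4 of them (Hspa1a, Hspa1b, Hsph1 and Dnajb1) it was the lowest of the 10 libraries. Dnajb1 (chromosome 8, 83608193 to 83612653, plus strand), the Hsp40 partner of inducible Hsp70, had 37 reads there against 455 to 1818 reads in the other 9 libraries. Hspa1a had 176 reads and Hspa1b 55 reads there, against 390 to 3907 and 460 to 4698 elsewhere. Hsph1, an Hsp110 nucleotide exchange factor, had 190 reads there against 366 to 2292 elsewhere. The other members were not lowest there. Hspa8 lay at a log2 level of 14.26 against a median of 14.92, second lowest after the 14.10 of Mertk KO replicate 1. Hsp90aa1, the stress-responsive Hsp90, lay at 12.26, where the lowest was 12.08 in Ptdss1 knockdown replicate 1. Dnaja1, another Hsp40, lay at 11.67 against a median of 11.70. Of all genes tested, 13.5% had their lowest level in this library. Among 33 further heat shock genes tested, 12 lay above their own median in control replicate 2 and the median deviation was -0.16, against -0.12 for all 11564 genes tested, so the further chaperones were near the level of all genes there.

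The same library was high in AP-1. All 6 AP-1 genes (Fos, Fosb, Fosl2, Jun, Junb and Jund) lay above their medians in control replicate 2, with a mean deviation of 0.74. Of all genes tested, 43.8% lay above their median there. The AP-1 mean was slightly higher, 0.77, in Ptdss1 knockdown replicate 1, where 4 of the 6 genes lay above their medians. Ier2, a nuclear immediate early protein, had 10090 reads in control replicate 2 against 2017 to 9178 elsewhere. Btg2, an antiproliferative cofactor of mRNA deadenylation, had its highest log2 level in control replicate 2, 13.56. Atf3, a stress-induced repressor of the ATF family, was at its lowest in control replicate 2, 11.05, so the immediate early genes were not uniformly high.

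Mertk KO replicate 2 was the opposite case for the immediate early genes. There 1 of 28 lay above its median (Zfp36l1, an mRNA decay factor), and 7 of 28 had their lowest level, among them Fos (14.19), Junb (12.70), Egr1 (10.72), Dusp1 (12.53) and Zfp36 (12.84). Of all genes tested, 55.6% lay above their median in this library and 2.87% had their lowest level in it. For the 4599 genes with at least 100 reads in every library these shares were 47.9% and 4.94%. Of those genes, 773 of the 2007 at 50 to 60% GC and 47 of the 137 at or above 60% GC lay above their median. The part of GC content in the immediate early levels of this library was not tested. The depth of this library was 19121396 reads and it lacked 0.216% of the common genes, so it was among the most complete libraries. Its heat shock level of -0.28 was within the range of the other Mertk KO libraries, and it held the highest Dnaja1 (12.08) and Hsp90aa1 (13.09) of all 10 libraries.

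Ptdss1 knockdown replicate 1 split the immediate early genes. It had the highest level of 11 of the 28, among them Fos (15.42), Junb (15.30), Jund (13.35) and Zfp36 (15.41), and the lowest level of 4, namely Egr3, Klf2, Dusp5 and Ier3. Egr3 had 0 reads there, a count that allows up to 3, Dusp5, a nuclear phosphatase for ERK, had 7 reads and Klf2, a transcription factor that restrains inflammatory activation, had 21 reads against 1575 to 4541 elsewhere. With the median over genes in place of the mean, the immediate early level of this library was 0.41 rather than -0.014, and over the 25 immediate early genes with at least 10 reads in every library its mean was 0.38. These levels were not particular to the immediate early genes: over the 4599 genes with at least 100 reads in every library the median deviation in this library was 0.64, with medians of 0.55, 0.78 and 1.38 for those below 50%, at 50 to 60% and at or above 60% GC. Of those 4599 genes 47.4% had their highest level in this library, as did 28.8% of all genes tested. The lowest level was in this library for 18% of the 4599 genes and for 33.7% of all genes tested.

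Some immediate early genes were highest where libraries were least complete. For Junb, Jund and Zfp36 the 4 highest libraries were Ptdss1 knockdown replicate 1, control replicate 2 and Mertk KO replicates 3 and 4, which are the 4 that lacked the most common genes. That is 3 of 28 immediate early genes and 0 of 7 heat shock genes, against 2.46% of all genes tested and 5.35% of 4599 genes that had 100 or more reads in every library. Junb and Jund are GC-rich, at 62.6% and 67.1% of the transcript, while Zfp36 is at 54.1%. The 137 genes with at least 60% GC and at least 100 reads in every library had median deviations of -0.038, -0.15, 0.088 and 0.20 in Mertk KO replicates 1 to 4, 1.38, 0.031 and -0.090 in Ptdss1 knockdown, and -0.077, 0.23 and -0.21 in control. They were thus also highest in those 4 libraries. The 2007 genes of 50 to 60% GC, the range that holds Zfp36, had medians of -0.051, -0.093, 0.057 and 0.040 in Mertk KO, 0.78, 0.00032 and -0.038 in Ptdss1 knockdown, and -0.0085, 0.042 and -0.055 in control, and were highest in the same 4 libraries. The part of completeness or GC content in the levels of these 3 genes was not tested.

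Between Mertk KO and control, no immediate early or heat shock gene passed the test. In limma across the 11564 genes tested, 0 of 35 had an adjusted p below 0.05, where 0.0173% of all genes did. At an unadjusted p below 0.05 there were 3 of the 35, 1 higher in Mertk KO (Egr2) and 2 lower (Dusp2 and Btg2), against 2.06% of all genes. The ranges of the groups did not overlap for 0 genes higher in Mertk KO (3% of all genes) and for 1 lower (2.62% of all genes), which was Zfp36l2, an mRNA decay factor. The median log2 fold change of the immediate early genes was -0.17, with 11 positive and 17 negative, and that of the heat shock genes was 0.45, with 5 positive and 2 negative, against 0.016 over all genes. The heat shock median was -0.33 without control replicate 2, so its sign rested on that library. Over all genes the median was then -0.083. The immediate early median was 0.068 without Mertk KO replicate 2, so its sign rested on that library too, and it lay between -0.32 and 0.068 as each library was left out.

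Of the AP-1 genes, Fos had log2 levels of 14.77, 14.19, 14.69 and 14.90 in Mertk KO replicates 1 to 4, against 14.90, 14.98 and 14.50 in control replicates 1 to 3. The groups overlapped, and the log2 fold change was -0.15 (SE 0.35, limma adjusted p = 1.0), between -0.30 and -0.0039 as each library was left out. Jun had 11.78, 10.47, 12.12 and 12.12 in Mertk KO, against 10.16, 11.55 and 9.84 in control. Here 3 of the 4 Mertk KO libraries lay above every control library, while replicate 2 lay below control replicate 2, and the log2 fold change was 1.10 (SE 0.57, limma adjusted p = 1.0).

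Egr1 and Egr2 encode zinc finger transcription factors, of which Egr2 also shapes macrophage activation. Egr1 had 12.25, 10.72, 11.50 and 11.69 in Mertk KO, against 11.41, 12.32 and 11.07 in control, with both groups spread over the same range. Its log2 fold change was -0.06 (SE 0.50) and turned to 0.30 without control replicate 2. Egr2 had 9.67, 9.04, 10.83 and 10.12 in Mertk KO, against 7.66, 9.50 and 8.26 in control. Control replicate 2 lay among the Mertk KO libraries and control replicates 1 and 3 lay below all of them, with a log2 fold change of 1.44 (SE 0.68, limma adjusted p = 1.0), between 1.04 and 1.96 as each library was left out.

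Atf3 had 12.17, 11.90, 12.78 and 12.74 in Mertk KO, against 12.54, 11.05 and 12.17 in control. The ranges overlapped, and the log2 fold change of 0.48 (SE 0.45) was 0.042 without control replicate 2. Dusp1 had 13.59, 12.53, 13.33 and 14.08 in Mertk KO, against 13.89, 13.49 and 13.32 in control, where the control range lay inside that of Mertk KO and the log2 fold change was -0.19 (SE 0.43). Dusp2 (chromosome 2, 127336159 to 127338376, plus strand), a nuclear phosphatase for ERK and p38 found mainly in immune cells, had 10.30, 8.07, 3.80 and 6.02 in Mertk KO, against 10.45, 10.93 and 8.21 in control. The low values were the 16 reads of Mertk KO replicate 3 and the 80 reads of replicate 4, and replicate 1 lay within the control range. Its log2 fold change was -2.82 (SE 1.25, limma adjusted p = 1.0), from -3.90 to -1.73 as each library was left out. Both of those libraries also lacked common genes, 8.60% and 5.75%, and the part of that in the Dusp2 values was not tested.

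Zfp36 had 13.43, 12.84, 14.13 and 14.10 in Mertk KO, against 13.18, 14.07 and 13.28 in control, with a log2 fold change of 0.12 (SE 0.50) that was -0.05 without Mertk KO replicate 3. Btg2 had 12.57, 11.81, 11.70 and 12.10 in Mertk KO, against 12.71, 13.56 and 12.47 in control. Mertk KO replicate 1 overlapped control replicate 3 and the other Mertk KO libraries lay lower than all controls, with a log2 fold change of -0.87 (SE 0.41, limma adjusted p = 1.0). It was -0.55 without control replicate 2, the library in which Btg2 was highest. Zfp36l2 had 11.97, 12.12, 11.96 and 10.26 in Mertk KO, against 12.45, 12.34 and 12.99 in control, giving a log2 fold change of -1.01 (SE 0.53, limma adjusted p = 1.0).

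**Figure D3:**
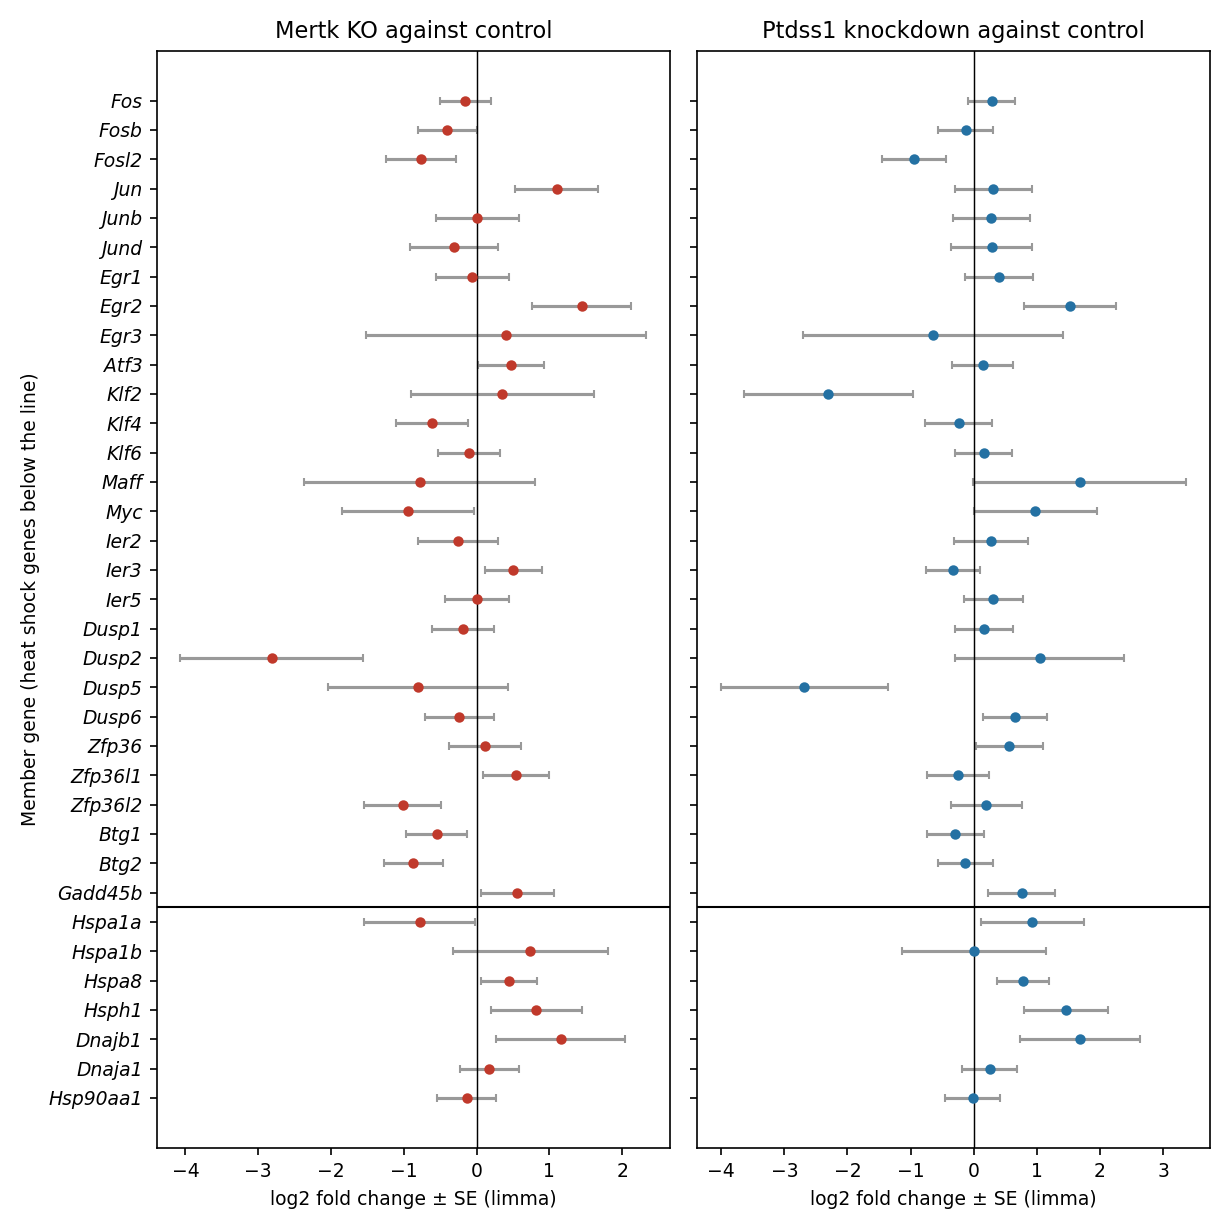
Points are log2 fold changes and bars their SE from limma, for Mertk KO against control (left) and Ptdss1 knockdown against control (right), with immediate early genes above the line and heat shock genes under it. None of the 35 passed an adjusted p of 0.05 in either comparison, and the widest bars belong to genes with few reads in single libraries, such as Egr3, Maff, Klf2, Dusp2 and Dusp5.

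For the heat shock genes, Dnajb1 had log2 levels of 9.38, 8.68, 9.77 and 9.93 in Mertk KO, against 9.57, 5.31 and 9.97 in control. Control replicate 1 lay among the Mertk KO libraries and control replicate 3 just above them, and the log2 fold change of 1.16 (SE 0.88) became -0.33 without control replicate 2. Hsph1 had 9.07, 9.81, 9.23 and 9.43 in Mertk KO, against 8.86, 7.64 and 9.19 in control, and its log2 fold change of 0.82 (SE 0.63) was 0.36 without that library. Hspa8 had 14.10, 14.82, 15.50 and 15.56 in Mertk KO, against 14.73, 14.26 and 14.67 in control. Mertk KO replicate 1 lay below all controls and the other Mertk KO libraries above them, giving a log2 fold change of 0.45 (SE 0.39, limma adjusted p = 1.0).

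Between Ptdss1 knockdown and control, again 0 of 35 passed in limma, where 0% of all genes did. At an unadjusted p below 0.05 there was 1 of the 35, Hsph1, higher in Ptdss1 knockdown, against 2.9% of all genes. Ranges did not overlap for 2 genes higher in Ptdss1 knockdown, Hsph1 and Hspa8 (3.32% of all genes), and for 1 lower, the AP-1 gene Fosl2 (3.6% of all genes). The median log2 fold change of the heat shock genes was 0.78, with 6 positive and 1 negative, and that of the immediate early genes 0.24, with 18 positive and 10 negative, against -0.053 over all genes. Without control replicate 2 the heat shock median was 0.20 and the median over all genes -0.31, and without Ptdss1 knockdown replicate 1 the immediate early median was -0.027. Both comparisons share the control libraries, so their fold changes are not independent of each other.

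Hsph1 had log2 levels of 10.96, 9.66 and 9.46 in Ptdss1 knockdown replicates 1 to 3, against 8.86, 7.64 and 9.19 in control replicates 1 to 3. Every Ptdss1 knockdown library lay above every control library, and the extremes were the 2 incomplete libraries. The log2 fold change was 1.46 (SE 0.67, limma adjusted p = 0.841), and 0.53 without both of them. Hspa8 had 15.55, 15.02 and 15.42 in Ptdss1 knockdown, against 14.73, 14.26 and 14.67 in control, again without overlap, giving a log2 fold change of 0.78 (SE 0.41, limma adjusted p = 0.841). It was 0.52 without both incomplete libraries, and 68.6% of the 75-base windows of the Hspa8 transcript also occur in other genes, so its read assignment is uncertain. The same limit holds for Zfp36l1 (53.6% of windows), Hsp90aa1 (53.1%), Jund (45.9%), Dnaja1 (26.2%) and Dusp5 (19.7%).

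Dnajb1 had 10.12, 9.66 and 10.12 in Ptdss1 knockdown, against 9.57, 5.31 and 9.97 in control. Control replicate 3 lay among the Ptdss1 knockdown libraries, and the log2 fold change of 1.68 (SE 0.95) was 0.20 without control replicate 2. Dnaja1 and Hsp90aa1 had log2 fold changes of 0.25 (SE 0.44) and -0.019 (SE 0.43) with overlapping ranges.

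Among the immediate early genes, Fos had 15.42, 14.61 and 15.21 in Ptdss1 knockdown, against 14.90, 14.98 and 14.50 in control, with overlapping ranges and a log2 fold change of 0.29 (SE 0.37) that lay between 0.12 and 0.52 as each library was left out, the lowest without Ptdss1 knockdown replicate 1. Jun had 11.89, 10.50 and 10.10 in Ptdss1 knockdown, against 10.16, 11.55 and 9.84 in control, and its log2 fold change of 0.31 (SE 0.61) was -0.22 without Ptdss1 knockdown replicate 1. Fosl2 had 11.37, 10.98 and 10.80 in Ptdss1 knockdown, against 11.80, 12.15 and 12.06 in control. All Ptdss1 knockdown libraries lay below all control libraries, by 0.95 on average (SE 0.51, limma adjusted p = 0.841), and the log2 fold change was -1.04 without both incomplete libraries.

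Egr1 had 11.01, 12.46 and 12.52 in Ptdss1 knockdown, against 11.41, 12.32 and 11.07 in control, giving a log2 fold change of 0.40 (SE 0.54). Without both incomplete libraries it was 1.25, since Egr1 was low in Ptdss1 knockdown replicate 1 and high in control replicate 2. Egr2 had 11.29, 9.59 and 9.08 in Ptdss1 knockdown, against 7.66, 9.50 and 8.26 in control. The ranges overlapped through control replicate 2, and the log2 fold change was 1.52 (SE 0.73, limma adjusted p = 0.841), between 0.86 and 2.03 as each library was left out.

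Atf3 had 11.47, 12.22 and 12.50 in Ptdss1 knockdown, against 12.54, 11.05 and 12.17 in control, and its log2 fold change of 0.14 (SE 0.49) was -0.29 without control replicate 2. Dusp1 had 13.52, 13.23 and 14.44 in Ptdss1 knockdown, against 13.89, 13.49 and 13.32 in control, giving a log2 fold change of 0.16 (SE 0.46). Dusp5 had 2.82, 9.16 and 9.94 in Ptdss1 knockdown, against 9.85, 10.55 and 9.57 in control. Its log2 fold change of -2.69 (SE 1.32, limma adjusted p = 0.841) came from the 7 reads of Ptdss1 knockdown replicate 1, and it was -0.44 without that library. Zfp36 had 15.41, 13.30 and 13.51 in Ptdss1 knockdown, against 13.18, 14.07 and 13.28 in control, and its log2 fold change of 0.56 (SE 0.53) was -0.10 without Ptdss1 knockdown replicate 1.

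Between Mertk KO and Ptdss1 knockdown, 0 of 35 passed in limma, where 0% of all genes did. At an unadjusted p below 0.05 there were 5 of the 35: Ier3 was higher in Mertk KO, and Dusp2, Zfp36l2, Myc and Hspa1a were lower, against 3.73% of all genes. Ranges did not overlap for 1 gene higher in Mertk KO, Zfp36l1 (2.91% of all genes), and for 1 lower, Hspa1a (2.32% of all genes). The median log2 fold change was -0.29 for the immediate early genes (8 positive, 20 negative) and -0.33 for the heat shock genes (1 positive, 6 negative), against 0.11 over all genes. Without Ptdss1 knockdown replicate 1 the median over all genes was -0.11, that of the immediate early genes -0.28 and that of the heat shock genes -0.22.

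Dusp2 had log2 levels of 10.30, 8.07, 3.80 and 6.02 in Mertk KO, against 12.13, 9.13 and 11.46 in Ptdss1 knockdown. Mertk KO replicate 1 overlapped Ptdss1 knockdown replicate 2 and the other Mertk KO libraries lay below all Ptdss1 knockdown libraries. The log2 fold change was -3.86 (SE 1.25, limma adjusted p = 0.805), from -4.94 to -2.78 as each library was left out. Zfp36l2 had 11.97, 12.12, 11.96 and 10.26 in Mertk KO, against 13.93, 12.40 and 12.06 in Ptdss1 knockdown, giving a log2 fold change of -1.21 (SE 0.53, limma adjusted p = 0.805) that was -0.65 without Ptdss1 knockdown replicate 1. Ier3 had 14.07, 13.02, 13.50 and 13.96 in Mertk KO, against 12.28, 12.81 and 13.32 in Ptdss1 knockdown, where Mertk KO replicate 2 overlapped. Its log2 fold change was 0.83 (SE 0.39, limma adjusted p = 0.805), and 0.57 without Ptdss1 knockdown replicate 1, the library in which Ier3 was lowest.

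The near-identical genes Hspa1a and Hspa1b, which encode the same inducible Hsp70, did not share their reads evenly. Hspa1a had 410, 390, 1201 and 439 reads in Mertk KO replicates 1 to 4, 3907, 1288 and 1806 in Ptdss1 knockdown replicates 1 to 3, and 2316, 176 and 2596 in control replicates 1 to 3. Both lie on chromosome 17, Hspa1a at 34969190 to 34972156 and Hspa1b at 34956436 to 34959238, both on the minus strand. Hspa1b had 610, 741, 4698 and 701 reads in Mertk KO, 760, 460 and 1410 in Ptdss1 knockdown, and 1805, 55 and 3849 in control. The ratio of Hspa1a to Hspa1b reads was 0.672, 0.526, 0.256 and 0.626 in Mertk KO, 5.14, 2.80 and 1.28 in Ptdss1 knockdown, and 1.28, 3.20 and 0.674 in control. It was below 1 in all 4 Mertk KO libraries and above 1 in all 3 Ptdss1 knockdown libraries, with the controls on both sides.

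**Figure D4:**
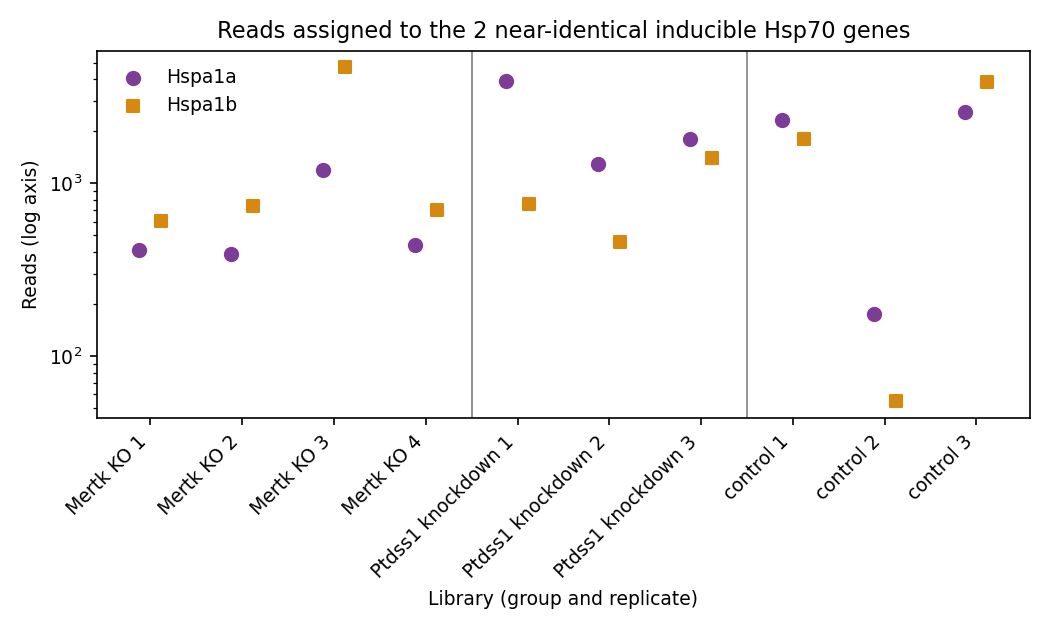
Reads assigned to Hspa1a (circles) and Hspa1b (squares) are shown on a log axis in each library, by group and replicate. Hspa1b is above Hspa1a in all 4 Mertk KO libraries and below it in all 3 Ptdss1 knockdown libraries, and both are lowest in control replicate 2 at 176 and 55 reads.

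On the log2 scale Hspa1a was at 9.23, 8.32, 9.93 and 8.46 in Mertk KO, against 11.73, 10.24 and 10.11 in Ptdss1 knockdown, without overlap. The log2 fold change was -1.71 (SE 0.76, limma adjusted p = 0.805), and -1.19 without Ptdss1 knockdown replicate 1. Hspa1b was at 9.81, 9.24, 11.89 and 9.14 in Mertk KO, against 9.37, 8.76 and 9.76 in Ptdss1 knockdown, overlapping, with a log2 fold change of 0.73 (SE 1.06) that was 0.10 without Mertk KO replicate 3. In the same unit the control libraries were at 10.88, 7.53 and 10.89 for Hspa1a and at 10.52, 5.87 and 11.46 for Hspa1b.

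Against those controls, the log2 fold change of Hspa1a was -0.78 (SE 0.76) in Mertk KO and 0.93 (SE 0.82) in Ptdss1 knockdown, and without control replicate 2 it was -1.90 and -0.19. That of Hspa1b was 0.74 (SE 1.06) in Mertk KO and 0.010 (SE 1.14) in Ptdss1 knockdown, and without control replicate 2 it was -0.97 and -1.70. Of the 75-base windows of the transcripts, 61.7% of Hspa1a and 55.8% of Hspa1b occur in another gene, so a read from either could be assigned to its partner. With the reads of both summed as 1 gene, the log2 fold change was 0.0026 in Mertk KO against control (limma adjusted p = 1), 0.59 in Ptdss1 knockdown against control (limma adjusted p = 0.915) and -0.59 in Mertk KO against Ptdss1 knockdown (limma adjusted p = 0.877).

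The further genes of both pathways also gave no call in any comparison in limma. Of 40 further immediate early genes, 35 were tested, and 0 of them had an unadjusted p below 0.05 in Mertk KO against control, where the smallest were those of the nuclear receptors Nr4a3 (log2 fold change -1.55) and Nr4a2 (-0.93) and of the repressor Bhlhe40 (0.84). In Ptdss1 knockdown against control 2 did, Phlda1 (2.02) and the clock gene Per1 (-1.99). In Mertk KO against Ptdss1 knockdown 1 did, the kinase Plk2 (3.04), which had a log2 level of 2.82 in Ptdss1 knockdown replicate 1. In the same order of comparisons, 2.06%, 2.9% and 3.73% of all genes did. The median log2 fold changes of the 35 genes were 0.0072 in Mertk KO against control, -0.0010 in Ptdss1 knockdown against control and -0.096 in Mertk KO against Ptdss1 knockdown.

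Of 34 further heat shock genes, 33 were tested. The limma unadjusted p was below 0.05 for 2 against control in Mertk KO (2.06% of all genes) and 2 in Ptdss1 knockdown (2.9%). In Mertk KO against Ptdss1 knockdown it was so for 0 (3.73%). Ranges did not overlap for 1 higher and 2 lower in Mertk KO than in control (3% and 2.62% of all genes). Ptdss1 knockdown had 6 higher and 3 lower than control (3.32% and 3.6%). In Mertk KO against Ptdss1 knockdown 1 was higher and 0 lower (2.91% and 2.32%). The Hsp90 cochaperone Fkbp4 had an unadjusted p below 0.05 against control in both other groups, with log2 fold changes of 1.35 (SE 0.58) in Mertk KO and 1.39 (SE 0.62) in Ptdss1 knockdown, which share the controls. Fkbp4 was at 9.31, 9.71, 10.93 and 11.21 in Mertk KO, against 9.41, 9.30 and 8.10 in control. Mertk KO replicate 1 thus lay within the control range. The Ptdss1 knockdown libraries, at 10.39, 10.19 and 10.39, all lay above the controls. Hsp90ab1, the constitutive Hsp90, was at 13.91, 13.93, 14.04 and 14.24 in Mertk KO, against 13.61, 13.11 and 13.20 in control, with no overlap and a log2 fold change of 0.72 (SE 0.34, limma adjusted p = 1). Stip1, which links Hsp70 to Hsp90, was at 12.63, 10.12 and 10.51 in Ptdss1 knockdown, against 9.18, 10.05 and 8.86 in control, giving a log2 fold change of 1.72 (SE 0.71, limma adjusted p = 0.841). The medians of the 33 genes were 0.15 in Mertk KO against control, 0.13 in Ptdss1 knockdown against control and -0.11 in Mertk KO against Ptdss1 knockdown.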

How the data were processed

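Per the labels' protocols, mRNA of the sorted macrophages was copied with a low-input kit, amplified by 16 PCR cycles, and sequenced as single reads of 75 cycles; the library kit does not mark strand and no molecular identifiers were used, so intervals and counts of reads cover counting error only. STAR, RSEM and mm10 are named in the submitters' processing notes; annotation, versions and the normalisation tool were not given in the sources. The authors deposited 1 table per library whose values were read as log2 of reads divided by a size factor, plus 1. Dividing by each library's step gave whole reads for 100% of values within a tolerance of 0.01.

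The 35 genes and the lists beside them were chosen with earlier results of these data known, so no list was tested and no p was adjusted over a list. All 35 passed the filter of at least 10 reads in at least 3 libraries, which left 11564 genes. limma-trend 3.58.1 with robust moderation in R 4.3.3 was fitted to the deposited log2 values of all 10 libraries, with a mean per group; tests were two-sided with Benjamini-Hochberg adjustment over all genes and a threshold of 0.05. It was tested on simulated data. Fold changes on the log2(value + 1) scale understate changes of low genes. Values in every library, with fold change and test, were given by rule for Fos, Jun, Egr1, Atf3, Dusp1, Zfp36, Hspa1a, Hspa1b, Hsph1, Dnajb1 and Hspa8 in the comparisons with control and for the 4 genes of smallest p in each comparison; of the further pathway genes, those among the 3 of smallest p were named. Zfp36l2 and Fosl2, whose ranges against control did not overlap, were added after their values were seen. Transcript lengths, GC content and shared 75-base windows came from GENCODE M21 (GRCm38), and plots were drawn with matplotlib 3.10.9.

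The alternatives were size factors by median of ratios, size factors by upper quartile, no filter, 50 reads in 3 libraries, limma-voom on recovered reads, no robust moderation, only the groups compared, a pseudocount of 8, array weights, and leaving out each library or both incomplete ones. Summing Hspa1a with Hspa1b and using medians over genes were chosen after seeing the data.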

Additional observations from a re-analysis of the deposited data

Results flagged for a closer look

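In the Mertk KO group, whose 4 libraries allow a test for a single distant value, 37 items were examined and 2 had a library far from the rest. Chance alone marks about 1 in 20 groups. Klf6, a zinc finger transcription factor, was at 12.84 in replicate 3 against 12.41 to 12.45 in the other Mertk KO libraries, a gap of 0.9036 of the group's range. Zfp36l2 was at 10.26 in replicate 4 against 11.96 to 12.12, a gap of 0.9144 of the range; without that library its log2 fold change against control was -0.57, with the ranges still apart. No cause was tested for either value.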

How the results depend on the processing

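No paired analysis was possible because the labels give no replicate number that groups share. In each comparison 20 alternatives gave 700 values for the 35 genes, and 0 passed; the smallest adjusted p values were 0.0782 for Hspa1a in Mertk KO against control and 0.109 for Hspa1a in Mertk KO against Ptdss1 knockdown, both with array weights, and 0.451 for Hspa8 in Ptdss1 knockdown against control without Ptdss1 knockdown replicate 2. Leaving out each library in turn kept the sign of 23, 19 and 23 of the 35 in Mertk KO against control, Ptdss1 knockdown against control and Mertk KO against Ptdss1 knockdown.

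Over all genes, Mertk KO against control gave 2 calls, but 0 with upper-quartile factors, with no filter or with 50 reads in 3 libraries, 1 without robust moderation, 25 with array weights, and 0 to 4 leaving out each library; 0 came without Mertk KO replicate 1 and 4 without Ptdss1 knockdown replicate 1. Array weights gave 2 calls in Ptdss1 knockdown against control and 35 in Mertk KO against Ptdss1 knockdown, where leaving out both incomplete libraries gave 1. The immediate early median of Mertk KO against control was -0.32 to 0.068 leaving out each library, and positive only without Mertk KO replicate 2. The immediate early median of Ptdss1 knockdown against control was 0.019 with upper-quartile factors and -0.027 to 0.40 leaving out each library. Those factors moved the median of all genes to -0.23 in that comparison.

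These sign changes were of fold changes that passed no test. In Mertk KO against control, array weights gave 0.025 for Egr1, -0.18 for Atf3, -0.044 for Zfp36, -0.88 for Hspa1b and -0.28 for Dnajb1; leaving out both incomplete libraries gave 0.30 for Egr1, -0.97 for Hspa1b and -0.33 for Dnajb1; and summing with Hspa1b gave 0.0026 for Hspa1a. Leaving out each library gave -0.32 to 0.30 for Egr1, -0.42 to 0.099 for Dusp1, -0.052 to 0.40 for Zfp36, -0.97 to 1.82 for Hspa1b and -0.33 to 2.00 for Dnajb1. In Ptdss1 knockdown against control, upper-quartile factors gave -0.077 for Atf3, -0.060 for Dusp1 and -0.21 for Hspa1b; Hspa1b was -0.27 with limma-voom and -0.031 with a pseudocount of 8. Array weights gave -0.47 for Hspa1a and -1.01 for Hspa1b, and leaving out both incomplete libraries -0.71 and -1.73. Leaving out each library gave -0.22 to 0.83 for Jun, -0.29 to 0.45 for Atf3, -0.19 to 0.41 for Dusp1, -0.10 to 0.95 for Zfp36, -0.19 to 1.49 for Hspa1a and -1.70 to 1.10 for Hspa1b. The cause was not tested.

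With medians in place of means, 16 of 20 class levels moved by less than the SD of their group and 4 by more: the immediate early level was 0.087 in Mertk KO replicate 3, 0.070 in Mertk KO replicate 4 and 0.41 in Ptdss1 knockdown replicate 1, and the heat shock level was -0.040 in Mertk KO replicate 3. Egr3, Maff, Klf2, Dusp2 and Dusp5, each with few reads in at least 1 library, carried the widest errors.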
